A study of Mus musculus with 12 samples.

Results

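NRF2, encoded by Nfe2l2, and 9 further genes were followed in mouse liver on normal diet, high-fat diet and high-fat diet with the compound MEC1. The 9 are Keap1, which restrains NRF2, and genes of the antioxidant response that NRF2 controls. The 10 genes were chosen by name, with earlier results of these data known. All 10 were found among the 24787 genes of the count tables. All 10 also passed the filter on low counts that left 14172 genes for testing. The mice were of the C57Bl/6 strain. The ND group ate normal diet. The other groups ate high-fat diet (HFD) and, after 2 months of feeding, were assigned at random to daily injection into the peritoneum of vehicle (the HFD group) or of MEC1 at 0.5 mg/kg (the HFD+MEC1 group). MEC1 is known here only by its code name, and the series title concerns PROTACs that enhance mitophagy, the removal of mitochondria by autophagy. Whole liver gave 12 RNA sequencing libraries, 4 in each group. Age, sex, length of dosing and whether ND mice were injected are not given in the sources used here, so HFD against ND compares diet and injection together. Nothing states that each library came from a different mouse, so p-values measure the spread between these libraries, which may be technical in part.

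NRF2 is a transcription factor that is normally held in the cytoplasm by KEAP1, an adaptor that passes it to a ubiquitin ligase for destruction. Oxidants and electrophiles modify cysteines of KEAP1, NRF2 then escapes, enters the nucleus, pairs with a small MAF protein and binds antioxidant response elements beside its target genes. In liver the targets make glutathione (Gclc, Gclm), recycle glutathione and thioredoxin (Gsr, Txnrd1), repair oxidised peroxiredoxins (Srxn1), reduce quinones (Nqo1) and degrade heme (Hmox1). Osgin1, an oxidative stress induced growth inhibitor, is a further target. Most control of NRF2 acts on the protein, which was not measured here; values below are mRNA levels.

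The core of the antioxidant response element was looked for near the start sites of these genes, because it is the sequence through which NRF2 reaches them. RefSeq start site windows (GRCm38.p6) of 300 bases, from 250 before to 50 after the start, were matched for 7 of the 10 genes. The letters TGACNNNGC or TGAGNNNGC, on either strand, were in a window of 5 of these 7 genes (Nfe2l2, Gclm, Srxn1, Txnrd1 and Osgin1). These 7 genes had 9 windows between them, and 5 of the 9 windows held the letters. Also counted by window, the same letters were in 27.8% of all 32851 windows (12.4% for TGACNNNGC and 17.6% for TGAGNNNGC). A match is a description of the sequence, not a binding site. The matches that lie before the start are shown 5′ to 3′ on the strand of the gene, with the core in capitals. The Nfe2l2 match is at chr2:75704879-75704913 (minus strand), the Gclm match at chr3:122245407-122245447 (plus strand), the Srxn1 matches at chr2:152105463-152105503 and chr2:152105350-152105390 (plus strand), the Txnrd1 match at chr10:82859098-82859138 (plus strand) and the Osgin1 match at chr8:119437032-119437072 (plus strand).
Nfe2l2: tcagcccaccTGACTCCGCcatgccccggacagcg
Gclm: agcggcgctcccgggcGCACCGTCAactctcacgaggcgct
Srxn1 near match: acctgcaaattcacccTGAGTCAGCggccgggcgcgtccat
Srxn1 far match: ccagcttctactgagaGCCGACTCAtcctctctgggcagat
Txnrd1: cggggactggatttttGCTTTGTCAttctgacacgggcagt
Osgin1: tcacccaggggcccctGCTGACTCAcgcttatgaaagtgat
The cores start 240 bases before the start in Nfe2l2, 134 in Gclm, 45 and 158 in Srxn1, 92 in Txnrd1 and 99 in Osgin1. The Txnrd1 and Osgin1 matches lie inside the annotated genes, which begin at 82833951 and 119434124, so the starts meant there are internal ones. The windows of Keap1 and Nqo1 do not hold these letters. Of the 5 genes with a match, Nfe2l2 and Srxn1 passed the diet test described below, and Gclm, Txnrd1 and Osgin1 did not.

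Libraries held 39916405 to 51340317 counts. Markers of hepatocytes (Alb, Ttr, Apoa1, Apob, Cps1, Asgr1 and Cyp2e1) summed to 71987 to 100713 CPM (counts scaled to a common library total). Levels of a gene between groups are given as CPM scaled with TMM factors, as mean ± SD with n = 4. Levels between genes are compared only as RPKM, the deposited values per transcript length and library size. The length used for each gene is not given in the sources used here, and the order of genes depends on it. In bulk tissue, fewer cells of a type and less RNA per cell cannot be told apart.

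Per length, the subunits of glutamate-cysteine ligase and Osgin1 were the most abundant of the 10 mRNAs and Nqo1 the least. In ND livers Gclc stood at 59.8 ± 7.44 RPKM, Gclm at 52.1 ± 4.01 and Osgin1 at 42.6 ± 6.18, and neighbours in this order overlapped. Txnrd1 at 28.6 ± 1.20 RPKM and Gsr at 19.7 ± 0.444 RPKM followed, each below the gene before it in every ND library. Nfe2l2 (9.86 ± 0.491 RPKM), Keap1 (8.56 ± 0.852), Srxn1 (8.47 ± 0.670) and Hmox1 (8.09 ± 1.77) overlapped as neighbours in the order, and Nqo1 was lowest at 2.06 ± 0.592 RPKM. The mean of Gclc over the 12 libraries was above that of 96.2% of tested genes, and the mean of Nqo1 above 45.1%. The order was kept at both ends on HFD, where Gclc reached 128 ± 32.8 RPKM and no longer overlapped Gclm at 56.7 ± 6.36 RPKM. In HFD+MEC1 livers Osgin1 had the highest mean at 97.8 ± 48.8 RPKM, ahead of Gclc at 81.3 ± 28.0 RPKM, and these overlapped.

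**Figure D1:**
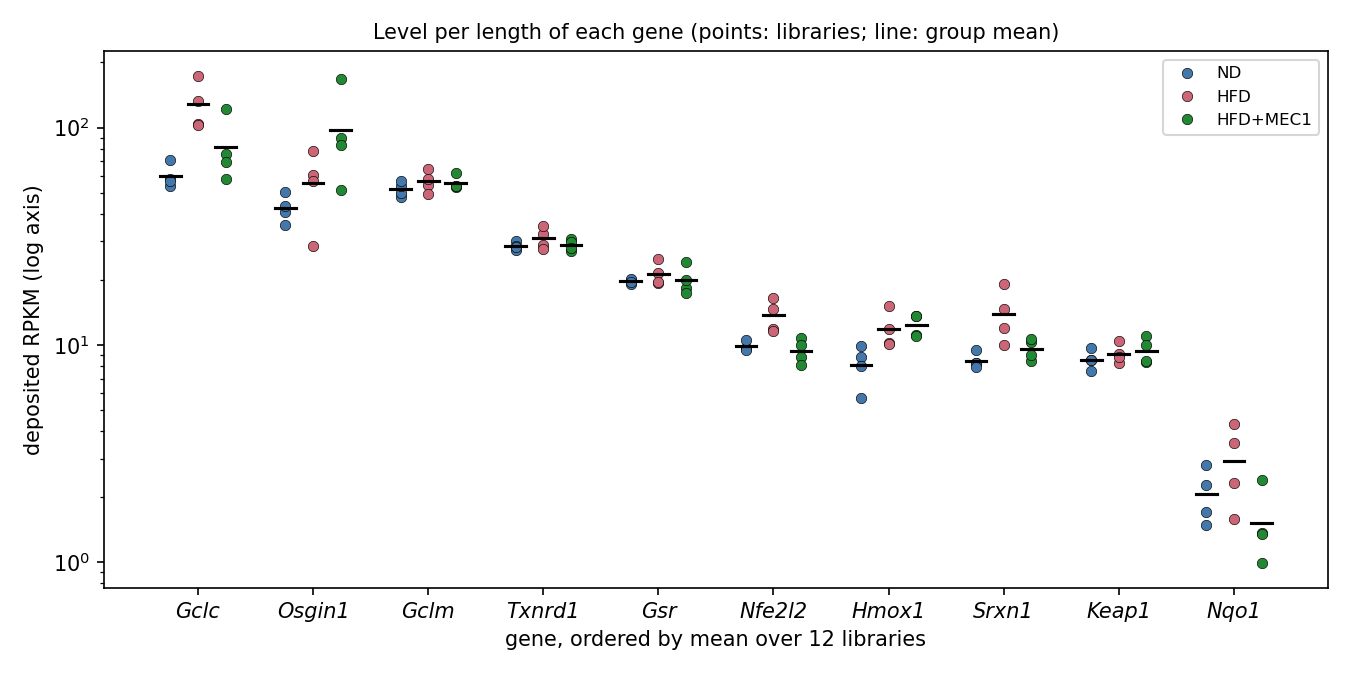
Deposited RPKM (log axis) of the 10 genes in the 12 libraries, with points for libraries, colours for the 3 groups and lines for group means, ordered by the mean over all libraries. Gclc, Osgin1 and Gclm are at the top, Nqo1 lies below the other genes in every group, and the ND and HFD points separate in Gclc, Nfe2l2, Srxn1 and Hmox1 (Srxn1 and Hmox1 overlap as TMM-scaled CPM) and overlap in the other 6 genes.

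HFD against ND asks what the diet, with vehicle, did to these genes. The mRNA for NRF2 itself, the catalytic subunit of glutathione synthesis and sulfiredoxin rose on HFD, while the partner subunit Gclm and the reductase genes Gsr and Txnrd1 differed from ND by 0.03 or less on the log2 scale. Of the 10 genes 3 rose, 0 fell and 7 did not pass (edgeR's quasi-likelihood test with Benjamini-Hochberg adjustment, threshold 0.05). Across all tested genes 6.30% passed in this comparison, 3.35% upward and 2.95% downward. The median log2 fold change of the 10 was 0.33, beside -0.0035 for all tested genes. When library totals replaced TMM the median of all genes moved to 0.12, and the share of calls that were upward moved from 53.2% to 79.5%. On log2(RPKM + 0.1) that share was 72.6%.

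Gclc, the catalytic subunit of glutamate-cysteine ligase, which sets the rate of glutathione synthesis, had the largest difference of the 10 (GRCm38 chromosome 9, 77754535 to 77794485, plus strand). Its levels were 284, 271, 326 and 267 CPM in ND replicates 1 to 4 and 471, 612, 730.5 and 478 CPM in HFD replicates 1 to 4. Every HFD library was above every ND library, as in 7.46% of all tested genes. The mean rose from 287 ± 27.3 to 573 ± 123 CPM, a 2.00-fold difference (log2 fold change 1.00 ± 0.18 SE, edgeR adjusted p = 0.0048). The call was the same under all 21 alternative settings, each single left-out library included, at adjusted p values of 3.12e-06 to 0.0218.

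Gclm, the modifier subunit that makes the same enzyme more efficient (chromosome 3, 122245557 to 122270732, plus strand), did not pass beside it. It stood at 143 ± 8.12 CPM in ND and 145 ± 11.5 CPM in HFD, with a log2 fold change of 0.03 and a 95% interval of -0.14 to 0.19. The ratio of Gclc to Gclm in RPKM, taken within each library, was 0.992 to 1.32 in ND, 1.91 to 2.67 in HFD and 1.09 to 1.98 in HFD+MEC1. The size of this ratio rests on the lengths used for RPKM, but its comparison between libraries does not. The ND and HFD ranges of this ratio did not overlap, and of the HFD+MEC1 libraries replicate 1, at 1.98, lay within the HFD range. In Gclm 4.71% of exonic bases overlap a gene on the opposite strand, and the use of strand in counting is not given in the sources used here.

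Nfe2l2 encodes NRF2 (chromosome 2, 75675513 to 75704641, minus strand). Its levels were 49.7, 51.2, 45.8 and 52.3 CPM in ND replicates 1 to 4 and 56.3, 71.4, 72.9 and 56.7 CPM in HFD replicates 1 to 4. The groups did not overlap, as in 14.3% of all tested genes (7.46% with HFD higher), and the mean rose from 49.7 ± 2.82 to 64.3 ± 9.05 CPM (1.29-fold, log2 fold change 0.37 ± 0.10, edgeR adjusted p = 0.0351). HFD replicates 2 and 3 were high and HFD replicates 1 and 4 lay close above the ND libraries. Leaving out ND replicate 1, 2, 3 or 4, or HFD replicate 2 or 3, ended the call, at edgeR adjusted p values of 0.0615 to 0.13 and log2 fold changes of 0.30 to 0.39.

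Srxn1 encodes sulfiredoxin, which reactivates over-oxidised peroxiredoxins (chromosome 2, 152105516 to 152111376, plus strand). Its levels were 31.1, 36.7, 29.4 and 28.8 CPM in ND replicates 1 to 4 and 51.1, 42.8, 62.3 and 35.6 CPM in HFD replicates 1 to 4. HFD replicate 4 lay within the ND range and the other 3 HFD libraries above it. The mean rose from 31.5 ± 3.59 to 48.0 ± 11.5 CPM (1.52-fold, log2 fold change 0.61 ± 0.14, edgeR adjusted p = 0.0187). Without ND replicate 1, 3 or 4 or without HFD replicate 3 the call was lost, at edgeR adjusted p values of 0.0525 to 0.067 and log2 fold changes of 0.46 to 0.60.

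Keap1, the adaptor that restrains NRF2 (chromosome 9, 21229730 to 21239361, minus strand), was level at 50.4 ± 4.10 CPM in ND and 50.3 ± 2.79 CPM in HFD, with a 95% interval of the log2 fold change from -0.19 to 0.18. A gene on the opposite strand overlaps 10.9% of its exonic bases. Txnrd1, cytosolic thioredoxin reductase (chromosome 10, 82833951 to 82897712, plus strand), stood at 153 ± 10.7 and 155 ± 11.1 CPM, with an interval of -0.16 to 0.19. Gsr, glutathione reductase (chromosome 8, 33652523 to 33698163, plus strand), stood at 69.7 ± 4.18 and 70.2 ± 5.95 CPM, with an interval of -0.18 to 0.20. For these 3 genes the intervals leave room for changes of up to about 0.20 on the log2 scale in either direction and do not show that the levels were equal.

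Nqo1, a quinone reductase often used as a readout of NRF2 (chromosome 8, 107388225 to 107403206, minus strand), varied widely within each group. It stood at 4.72, 6.01, 2.92 and 3.41 CPM in ND replicates 1 to 4 and at 6.82, 4.60, 7.81 and 3.13 CPM in HFD replicates 1 to 4, so the groups overlapped through most of their range. Its log2 fold change of 0.39 ± 0.30 did not pass (edgeR adjusted p = 0.51), with 121 to 394 counts in these 8 libraries.

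Hmox1, heme oxygenase 1 (chromosome 8, 75093621 to 75100589, plus strand), stood at 20.9, 12.4, 17.5 and 16.4 CPM in ND replicates 1 to 4 and at 19.99, 20.3, 21.6 and 30.3 CPM in HFD replicates 1 to 4. Only ND replicate 1 reached into the HFD range. The log2 fold change was 0.46 ± 0.16 (edgeR adjusted p = 0.119), and it passed only when library totals replaced TMM (0.57, adjusted p = 0.0407), a scaling that moved the median of all genes to 0.12. Hmox1 is also made by Kupffer cells, the resident macrophages that clear red blood cells, and 11 of 11 Kupffer cell and macrophage markers had a positive log2 fold change in this comparison, 0 of them past the edgeR threshold and 4 at an unadjusted p under 0.05, as were 20.7% of all tested genes. Their summed level ran from 317 to 470 CPM in ND, 380 to 608 CPM in HFD and 446 to 600 CPM in HFD+MEC1, none of the 11 was at 0 in any library, and their part in the Hmox1 values was not tested. In replicates 1 to 4 the sums were 317, 404, 470 and 410 CPM in ND and 404, 380, 608 and 592 CPM in HFD. In HFD+MEC1 replicates 1 to 4 they were 446, 599, 600 and 554 CPM. Hmox1 stood at 20.3, 27.3, 27.2 and 22.5 CPM in those HFD+MEC1 libraries. Among other markers in HFD against ND, 4 of 5 of sinusoidal endothelium were positive, 1 of 5 of stellate cells and 0 of 4 of cholangiocytes.

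Osgin1 (chromosome 8, 119434124 to 119446256, plus strand) stood at 132, 111, 109 and 90.3 CPM in ND replicates 1 to 4. In HFD replicates 1 to 4 it stood at 69.4, 151, 177 and 142 CPM. HFD replicate 1 was below every ND library and the other 3 HFD libraries above every one, and the difference did not pass (log2 fold change 0.29 ± 0.38, edgeR adjusted p = 0.73).

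**Figure D2:**
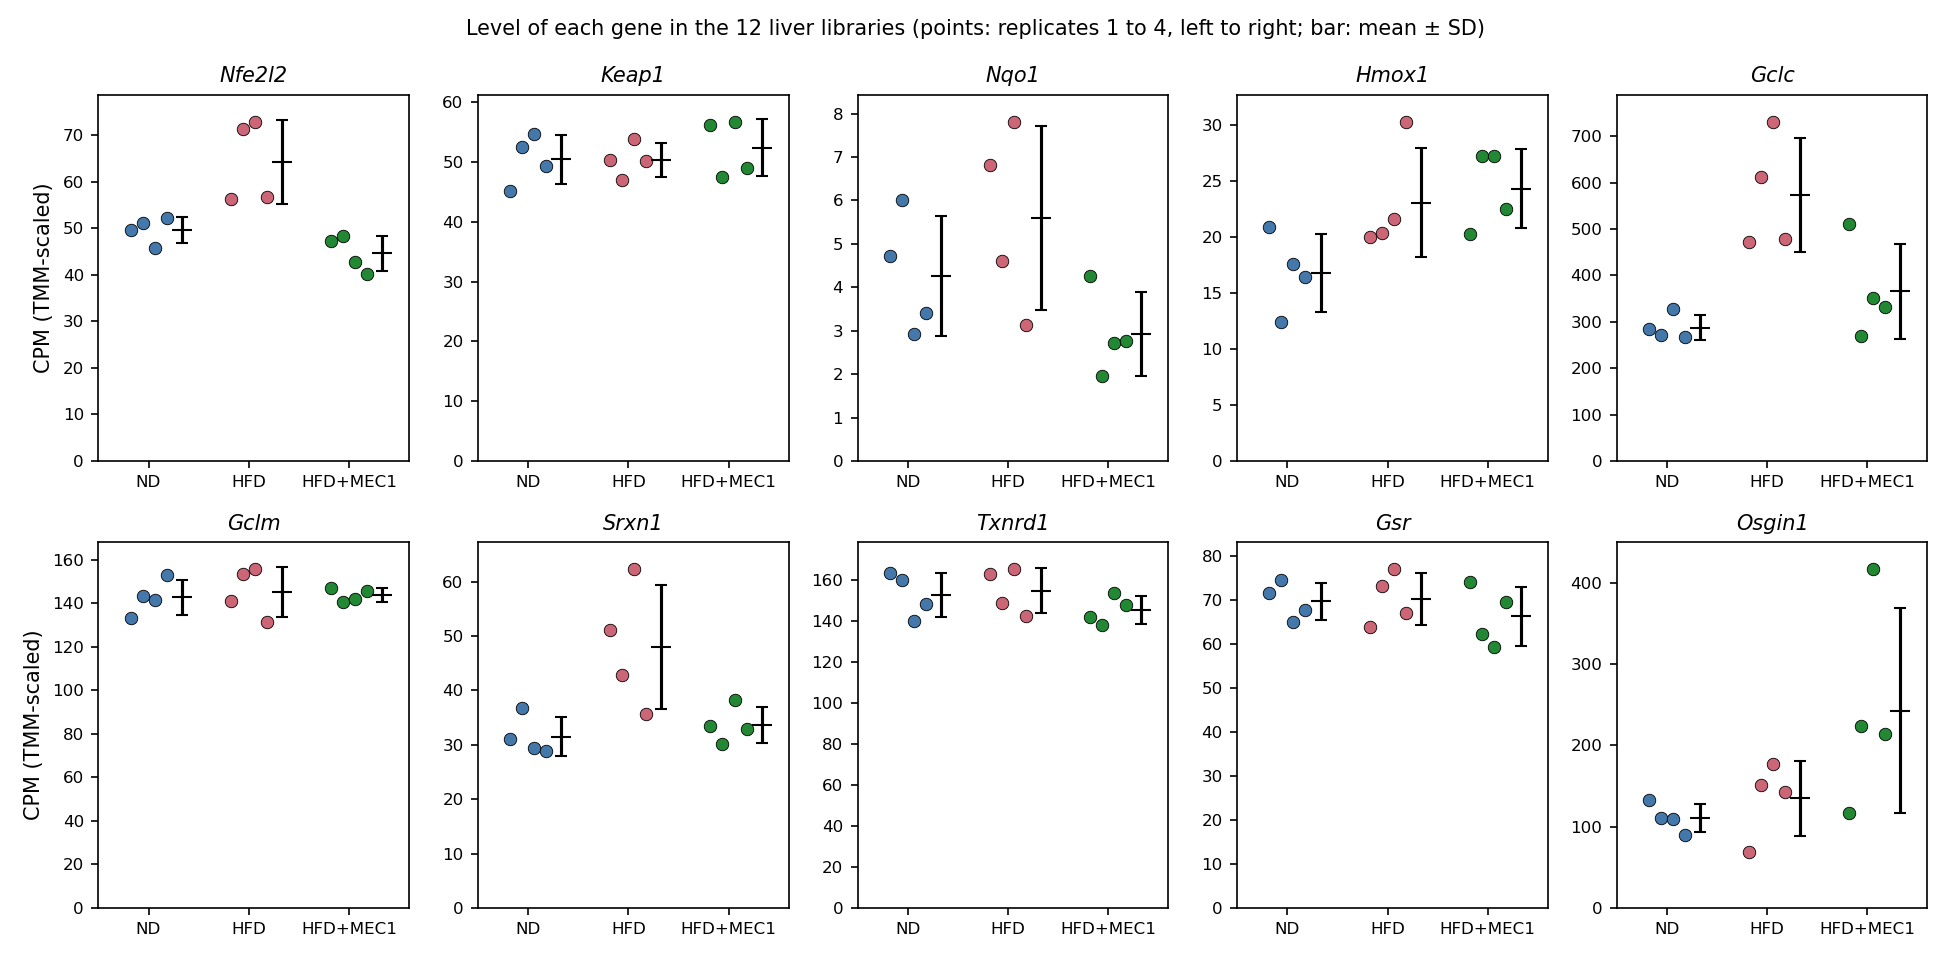
CPM (linear axes from 0) of each gene in the 12 libraries, with points for replicates 1 to 4 from left to right in each group and bars for mean ± SD. Gclc and Nfe2l2 are higher in every HFD library than in every ND library, Nfe2l2 is lower in every HFD+MEC1 library than in every HFD library, and Gclm, Txnrd1, Gsr and Keap1 are level.

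HFD+MEC1 against HFD, the randomised comparison, asks what the compound did on the diet. Nfe2l2 and the genes that had risen on HFD stood lower with MEC1, and Osgin1 stood higher, but none of the 10 genes passed with edgeR. At an unadjusted p under 0.05 there were 4 (Nfe2l2, Nqo1, Gclc and Srxn1). DESeq2 called 3, where it called 2.74% of all tested genes, and limma-voom called 0. Over all tested genes 0.0282% passed in this comparison (0.00706% upward and 0.0212% downward) and 14.8% had an unadjusted p under 0.05. Without HFD+MEC1 replicate 1 the share of all tested genes that passed was 3.2%, and without HFD replicate 4 it was 0.501%. Calls gained without either library are to be read beside these shares. The median log2 fold change of the 10 genes was -0.09, beside 0.0060 for all tested genes. This comparison and the one with ND share the HFD libraries, so a gene that is high in those libraries by chance differs in both, in opposite directions.

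Nfe2l2 was lower in each HFD+MEC1 library than in each HFD library, at 47.2, 48.4, 42.7 and 40.3 CPM in HFD+MEC1 replicates 1 to 4. It was the 1 gene of the 10 whose groups did not overlap here, where the groups of 7.11% of all tested genes did not (3.98% with HFD+MEC1 lower). The mean was 44.7 ± 3.80 CPM, beside 64.3 ± 9.05 CPM in HFD, 1.44-fold lower, with a log2 fold change of -0.53 ± 0.10, an unadjusted p of 7.32e-05 and an edgeR adjusted p of 0.0632. The difference passed without HFD replicate 4 (edgeR adjusted p = 0.0297), without HFD+MEC1 replicate 1 (0.0199), without the filter on low counts (0.0478) and with DESeq2 (0.00122). Over its 21 alternative settings the log2 fold change ran from -0.58 to -0.46.

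Gclc stood at 510.4, 268, 351 and 331 CPM in HFD+MEC1 replicates 1 to 4. Replicate 1 lay within the HFD range of 471 to 730.5 CPM and the other 3 below it. The mean was 365 ± 103 CPM, with a log2 fold change from HFD of -0.65 ± 0.18 (edgeR adjusted p = 0.136). Without HFD+MEC1 replicate 1 the difference was -0.85 and passed (edgeR adjusted p = 0.0121), as did 3.2% of all tested genes. The Gclc difference also passed with DESeq2 (adjusted p = 0.0206).

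Srxn1 stood at 33.5, 30.2, 38.2 and 32.8 CPM in HFD+MEC1 replicates 1 to 4, a mean of 33.7 ± 3.33 CPM. HFD replicate 4, at 35.6 CPM, was the only HFD library within that range. The log2 fold change from HFD was -0.51 ± 0.14 (edgeR adjusted p = 0.134), and it passed without HFD replicate 4 (-0.63, adjusted p = 0.0411) and with DESeq2 (adjusted p = 0.042). Nqo1 stood at 4.26, 1.97, 2.72 and 2.75 CPM in HFD+MEC1 replicates 1 to 4, lower on average than in HFD by 1.91-fold (log2 fold change -0.93 ± 0.31, edgeR adjusted p = 0.185), and HFD replicate 4, at 3.13 CPM, was below HFD+MEC1 replicate 1.

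Osgin1 stood apart from these genes in direction. Its HFD+MEC1 levels were 116, 224, 417 and 214 CPM in replicates 1 to 4, and 3 of these libraries were above every HFD library. The mean was 243 ± 126 CPM against 135 ± 46.2 CPM in HFD (log2 fold change 0.85 ± 0.38, edgeR adjusted p = 0.337). HFD+MEC1 replicate 3 was highest, and without it the log2 fold change was 0.46.

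Hmox1 was 24.3 ± 3.50 CPM in HFD+MEC1, beside 23.1 ± 4.86 CPM in HFD, with an interval of the log2 fold change from -0.27 to 0.42. Gclm stood at 144 ± 3.05 CPM (interval -0.18 to 0.15) and Txnrd1 at 145 ± 6.79 CPM (-0.27 to 0.09). Gsr stood at 66.3 ± 6.74 CPM (-0.27 to 0.11) and Keap1 at 52.4 ± 4.77 CPM (-0.13 to 0.24). None of these 5 had a log2 fold change beyond 0.10 in size.

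HFD+MEC1 against ND asks where treated mice on the diet stood beside mice on normal diet. With edgeR 0 of the 10 genes passed, where 4.54% of all tested genes did (2.15% upward and 2.40% downward). At an unadjusted p under 0.05 there were 2 (Hmox1 and Osgin1), beside 19.1% of all tested genes. DESeq2 called 2, where it called 8.15% of all tested genes, and limma-voom called 0. None of the 10 genes had groups without overlap, against 5.13% of all tested genes with HFD+MEC1 higher and 5.84% with it lower. When library totals replaced TMM, the upward share of calls here moved from 47.2% to 66.8%.

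The 3 genes that had risen on HFD did not pass against ND. Nfe2l2 had a log2 fold change of -0.16 (95% interval -0.37 to 0.06), Srxn1 of 0.10 (-0.21 to 0.40) and Gclc of 0.35 (-0.03 to 0.73). Nqo1 was at 2.92 ± 0.962 CPM beside 4.27 ± 1.39 CPM in ND (log2 fold change -0.54 ± 0.31, edgeR adjusted p = 0.366). Hmox1 and Osgin1 had higher means than in ND. Hmox1 differed by 0.53 ± 0.16 (edgeR adjusted p = 0.0798) and passed without HFD replicate 4 (adjusted p = 0.0433), with library totals (0.0493), with DESeq2 (0.0374) and with RPKM at a pseudocount of 0.1 (0.0481). Osgin1 differed by 1.13 ± 0.38 (edgeR adjusted p = 0.134) and passed without HFD+MEC1 replicate 1 (1.37, adjusted p = 0.0479) and with DESeq2 (0.0366).

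**Figure D3:**
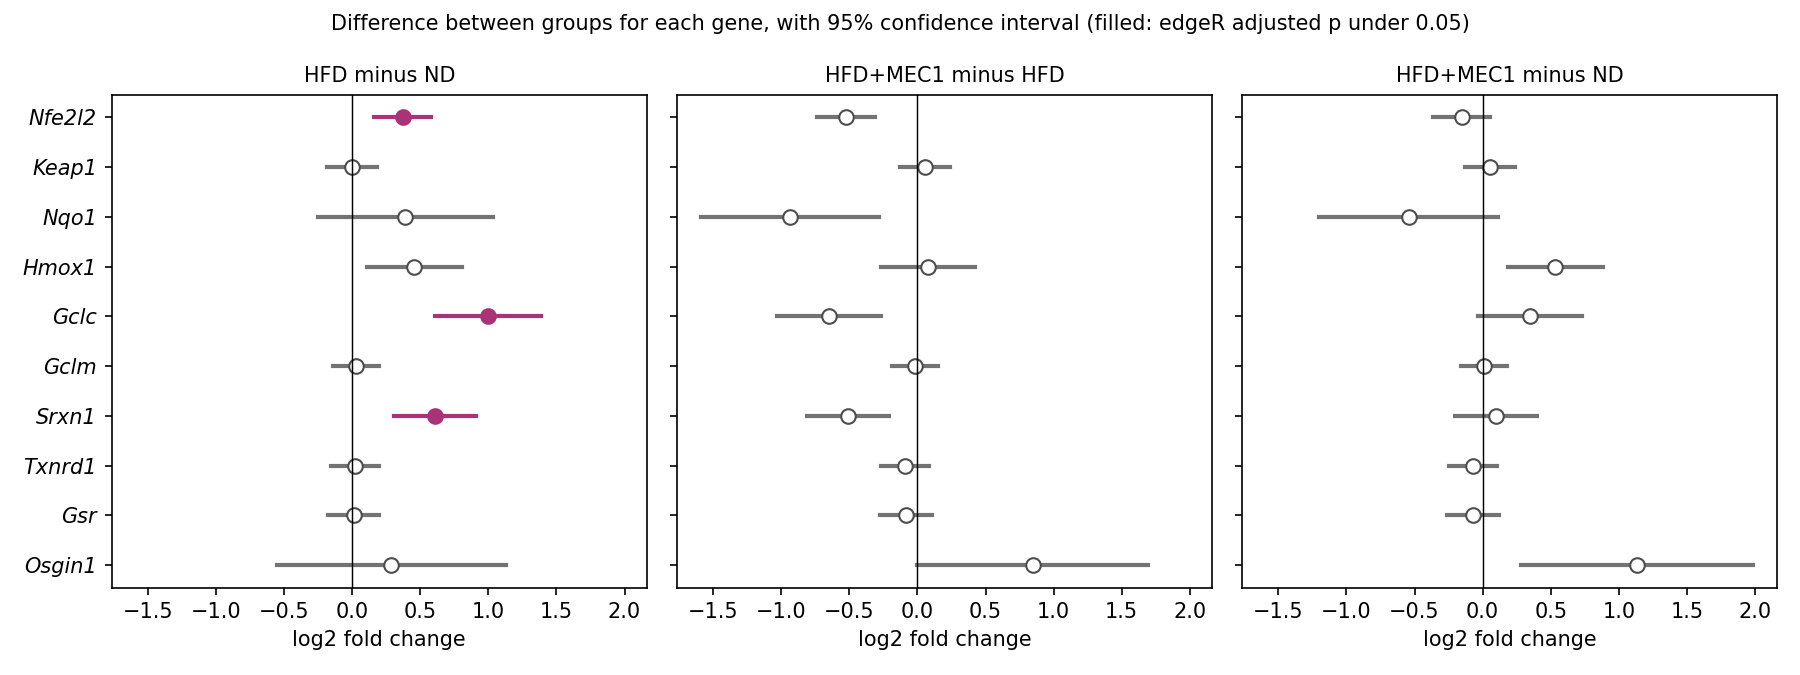
Log2 fold change of each gene in the 3 comparisons, with points for estimates, lines for 95% confidence intervals and filled points for an edgeR adjusted p under 0.05. Nfe2l2, Gclc and Srxn1 are filled in HFD minus ND and lie to the left of 0, unfilled, in HFD+MEC1 minus HFD; no gene is filled in HFD+MEC1 minus HFD or HFD+MEC1 minus ND.

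Among themselves the 10 genes did not vary as one block. Over the 12 libraries 29 of the 45 pairs had a positive Pearson correlation of log2 CPM, with a median of 0.20. Nqo1 and Txnrd1 correlated at 0.80, Gclc and Srxn1 at 0.78, Nqo1 and Srxn1 at 0.74 and Nfe2l2 and Gclc at 0.71, while Nqo1 and Osgin1 stood at -0.50. After group means were removed, Srxn1 and Txnrd1 stood at 0.82, Nqo1 and Srxn1 at 0.81, Nfe2l2 and Gclc at 0.40 and Gclc and Srxn1 at 0.38. Hmox1 then stood at -0.67 with Nqo1, -0.63 with Gclm and -0.51 with both Srxn1 and Gsr. HFD replicate 3 had the highest level of its group for 9 of the 10 genes (all but Hmox1). The share of all tested genes highest in that library was not counted. Over all tested genes its counts differed from those of the other HFD libraries by 174 to 267 in chi-square per gene, against 66.4 to 121 among the others. The libraries share their scaling, so these correlations describe these 12 libraries only.

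For 4 of the genes the closest patterns among all tested genes were looked up. Most like Nfe2l2 over the 12 libraries in log2 CPM were Rnf11 (Pearson r = 0.95), Gm38426 (0.91) and Dynlt3 (0.91). Most like Nqo1 were Aldh1a7 (0.91), Adss (0.91) and Gstm2 (0.91). Most like Hmox1 were Scnm1 (0.88), Esam (0.87) and Smarcc1 (0.86), and most like Gclc were Cidec (0.98), Pcsk6 (0.96) and Cyp2c38 (0.96). These are the highest values among the tested genes and carry no test.

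Of 16 regulators and partners of NRF2, 2 rose on HFD, 0 fell and 14 did not pass, beside 6.30% called among all tested genes, with a median log2 fold change of 0.08. Maff, a small MAF protein of the kind that pairs with NRF2, stood at 0.948 to 1.28 CPM in ND and 2.20 to 3.82 CPM in HFD, and rose by a log2 fold change of 1.34 ± 0.25 (edgeR adjusted p = 0.00526). Nfe2l1, a relative of NRF2 that controls proteasome genes, stood at 91.9 to 102 CPM in ND and 123 to 129.7 CPM in HFD and rose by 0.38 ± 0.09 (edgeR adjusted p = 0.0166). Both were also higher in HFD+MEC1 than in ND, at 0.99 ± 0.25 for Maff (edgeR adjusted p = 0.0342) and 0.37 ± 0.09 for Nfe2l1 (edgeR adjusted p = 0.0224). There the other 14 did not pass, and 4.54% of all tested genes did.

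The Maff call on HFD held without each of the 12 libraries in turn, and that of Nfe2l1 was lost without ND replicate 1 (edgeR adjusted p = 0.0577) or HFD replicate 3 (0.0519). Against ND with MEC1, the Maff call ended when ND replicate 1, 2, 3 or 4 or HFD+MEC1 replicate 1 or 4 was left out (edgeR adjusted p of up to 0.105) and that of Nfe2l1 when ND replicate 1 or 4 or HFD+MEC1 replicate 3 was (up to 0.0769). With only both groups fitted neither was called (0.0589 for Maff and 0.0551 for Nfe2l1), and Maff was not called with limma-voom (0.0794) or with RPKM at a pseudocount of 1 (0.0685). Between HFD+MEC1 and HFD, edgeR called 0 of the 16, and DESeq2 and limma-voom called 0. At an unadjusted p under 0.05 there were 2, beside 14.8% of all tested genes. The smallest p values belonged to Mafk, another small MAF gene (-0.32 ± 0.14, edgeR adjusted p = 0.319), and Syvn1, a ubiquitin ligase of the endoplasmic reticulum that also targets NRF2 (0.59 ± 0.26, edgeR adjusted p = 0.322).

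Conjugation and transport genes known as NRF2 targets mostly had lower values with MEC1, though edgeR called none against HFD. The summed hepatocyte markers were also lower in part of these libraries, at 97326, 82714, 71987 and 94893 CPM in HFD+MEC1 replicates 1 to 4 against 88294 to 100096 CPM in HFD, with 4 of the 7 markers negative and 0 called. Alb, the largest part of the sum, had a mean of 71566 CPM in HFD and 61996 CPM with MEC1. Apoa1, Apob and Cps1 had higher means with MEC1. The part of these markers in the values of this list was not tested. On HFD against ND 0 of 21 rose, 1 fell and 20 did not pass, with a median of 0.12. Of all tested genes 3.35% rose and 2.95% fell there. The gene that fell was Gstp1, a pi class glutathione transferase, at 2400 to 2983 CPM in ND and 767 to 1377 CPM in HFD (log2 fold change -1.23 ± 0.27, edgeR adjusted p = 0.0159); the call held without each library in turn. In HFD+MEC1 against HFD 20 of 21 were negative with a median of -0.59, where the median of all tested genes was 0.0060. EdgeR called 0 of them, 15 had an unadjusted p under 0.05 (14.8% of all tested genes), DESeq2 called 6 (2.74% of all tested genes) and limma-voom 0. Gstm1, a mu class glutathione transferase, had a mean of 776 ± 206 CPM on HFD, and of 427 ± 123 CPM with MEC1 (log2 fold change -0.86 ± 0.20, edgeR adjusted p = 0.101). It passed without HFD replicate 4 (edgeR adjusted p = 0.0333) or HFD+MEC1 replicate 1 (0.00837), where 0.501% and 3.2% of all tested genes passed. Gsta1, an alpha class transferase, ran from 4.24 to 43.3 CPM on HFD, and from 0.413 to 4.58 CPM with MEC1 (log2 fold change -3.46 ± 0.84, edgeR adjusted p = 0.134). Its log2 fold change was -4.10 without HFD+MEC1 replicate 1 and -3.03 without HFD replicate 3, and DESeq2 called it (adjusted p = 0.00215).

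Against ND, 3 of the 21 conjugation genes fell with MEC1 and 0 rose, beside 2.40% and 2.15% of all tested genes. Gsta4 fell from 48.5 ± 7.80 to 21.5 ± 7.68 CPM (log2 fold change -1.17 ± 0.23, edgeR adjusted p = 0.0155), Gstm1 fell by 0.84 ± 0.20 on the log2 scale (edgeR adjusted p = 0.0241) and Gsta2 fell from 16.97 ± 4.44 to 3.28 ± 2.15 CPM (edgeR adjusted p = 0.0383). The Gsta4 call held without each library in turn. That of Gstm1 was lost without ND replicate 1 or 2 or HFD+MEC1 replicate 2, 3 or 4 (edgeR adjusted p of up to 0.0632), and that of Gsta2 without any 1 library other than ND replicate 3, HFD replicates 1 and 4 and HFD+MEC1 replicate 1 (up to 0.0933). The Gstm1 call was also lost with library totals (0.0827) and with RPKM at 0.1 and 1 (0.0615 and 0.0655), and the Gsta2 call with library totals (0.0513) and without the filter on low counts (0.0536). Glutathione transferases of 1 class are near in sequence, so how counts were split among them is uncertain.

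NADPH, thiol and iron genes of the NRF2 program also mostly had lower values with MEC1. On HFD, edgeR called 0 of the 16 tested (of 18 listed), with 5 at an unadjusted p under 0.05 (20.7% of all tested genes) and 0 by DESeq2 or limma-voom. Pir, an iron-binding nuclear protein, stood at -0.42 ± 0.15 (edgeR adjusted p = 0.127) and Fth1, ferritin heavy chain, at 0.37 ± 0.14 (edgeR adjusted p = 0.139). With MEC1 against HFD 15 of 16 were negative, with a median of -0.29. Where 0.0212% of all tested genes fell and 0.00706% rose, 0 of the 16 rose and 1 fell. That gene was Tkt, transketolase of the pentose phosphate pathway, which ran from 101 to 139 CPM on HFD, and from 67.7 to 86.2 CPM with MEC1 (log2 fold change -0.64 ± 0.10, edgeR adjusted p = 0.0499). The Tkt call was lost without any 1 library other than ND replicate 3, HFD replicates 2 and 4 and HFD+MEC1 replicate 1, at edgeR adjusted p values of 0.0528 to 0.155. It was also lost with library totals (0.0816), with only both groups fitted (0.0866), with limma-voom (0.0509) and with RPKM at pseudocounts of 0.1 and 1 (0.10 and 0.118).

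Against ND, Tkt, Pgd and Pir fell with MEC1, 3 of 16, and 0 rose, beside 2.40% and 2.15% of all tested genes. Pgd, which makes NADPH in the pentose phosphate pathway, fell from 44.0 ± 5.52 to 28.8 ± 4.39 CPM (log2 fold change -0.61 ± 0.13, edgeR adjusted p = 0.0135), and the call held without each library in turn but not with RPKM at a pseudocount of 1 (0.0508). Tkt fell by 0.45 ± 0.10 (edgeR adjusted p = 0.0221) and lost the call without ND replicate 1 or 3 or HFD+MEC1 replicate 3 or 4 (up to 0.0579), with library totals (0.138) and with RPKM at 0.1 and 1 (0.145 and 0.154). Pir fell by 0.66 ± 0.16 (edgeR adjusted p = 0.0237) and lost it without ND replicate 1, 2 or 4 or HFD+MEC1 replicate 3 or 4 (up to 0.075), with library totals (0.0685) and with RPKM at 0.1 and 1 (0.0632 and 0.0664).

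Among other glutathione, thioredoxin and peroxide enzymes, 2 of 21 tested rose on HFD, 0 fell and 19 did not pass, with a median of 0.13. Of all tested genes 3.35% rose and 2.95% fell in this comparison. Gss, glutathione synthetase, which acts after the Gclc step, rose from 47.4 ± 4.90 to 64.9 ± 12.6 CPM (log2 fold change 0.45 ± 0.12, edgeR adjusted p = 0.0373). Its groups did not overlap, as in 14.3% of all tested genes (7.46% with HFD higher). Ggct, which breaks down gamma-glutamyl dipeptides, rose from 8.20 ± 1.01 to 12.6 ± 1.27 CPM (0.62 ± 0.16, edgeR adjusted p = 0.0264). The Gss call ended when ND replicate 1, 2, 3 or 4 or HFD replicate 2 or 3 was left out (up to 0.139) and with RPKM at a pseudocount of 1 (0.0517), and that of Ggct without ND replicate 3 or 4 or HFD replicate 2, 3 or 4 (up to 0.0969). Genes on the opposite strand overlap 15.4% of the exonic bases of Gss.

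With MEC1 against HFD edgeR called 0 of these 21, and their median was -0.08. At an unadjusted p under 0.05 there were 8 (14.8% of all tested genes), with 1 called by DESeq2 (2.74%) and 0 by limma-voom. Msra, a methionine sulfoxide reductase, stood at -0.46 ± 0.12 (edgeR adjusted p = 0.106) and Glrx, glutaredoxin, at -0.52 ± 0.15 (edgeR adjusted p = 0.147). Both passed without HFD+MEC1 replicate 1 (edgeR adjusted p = 0.0446 and 0.0157), where 3.2% of all tested genes did. Against ND 1 of the 21 rose and 0 fell, beside 2.15% and 2.40% of all tested genes. It was Msrb1, another methionine sulfoxide reductase, at 207 ± 10.3 CPM in ND and 270.2 ± 29.6 CPM with MEC1 (0.38 ± 0.09, edgeR adjusted p = 0.0242). That call was lost without ND replicate 1, 2 or 4 or HFD+MEC1 replicate 3 or 4 (up to 0.0894) and with only both groups fitted (0.0595).

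Of 9 heme and iron genes that act beside Hmox1, edgeR called 0 on HFD, and DESeq2 and limma-voom called 0. At an unadjusted p under 0.05 there was 1, beside 20.7% of all tested genes. Slc40a1, the iron exporter ferroportin, stood at 0.26 ± 0.10 (edgeR adjusted p = 0.142) and passed with library totals (0.38, adjusted p = 0.0422). Fech, the last enzyme of heme synthesis, stood at -0.11 ± 0.07 (edgeR adjusted p = 0.406), and at 0.0094 with library totals. Cd163, the hemoglobin scavenger receptor of macrophages, had a mean of 20.4 ± 4.30 CPM on HFD, and of 31.6 ± 5.10 CPM with MEC1 (log2 fold change 0.63 ± 0.15, edgeR adjusted p = 0.0995). Its HFD and HFD+MEC1 libraries did not overlap, as in 7.11% of all tested genes. In that comparison edgeR called 0 of the 9, DESeq2 1 (2.74% of all tested genes) and limma-voom 0. At an unadjusted p under 0.05 there were 4, beside 14.8% of all tested genes. Cd163 passed without HFD replicate 4 (edgeR adjusted p = 0.0302) or HFD+MEC1 replicate 1 (0.025), where 0.501% and 3.2% of all tested genes did.

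Hpx, the plasma protein that carries heme to the liver, stood at 1.14 ± 0.46 (edgeR adjusted p = 0.291). It passed without HFD+MEC1 replicate 1 (1.44, edgeR adjusted p = 0.0382), as did 3.2% of all tested genes. Without HFD+MEC1 replicate 3 the Hpx difference was 0.48. Against ND Cd163 rose by 0.61 ± 0.15 (edgeR adjusted p = 0.0256), 1 of 9 with 0 down, beside 2.15% up and 2.40% down among all tested genes. Cd163 lost the call without ND replicate 1 or 4 or HFD+MEC1 replicate 3 or 4 (edgeR adjusted p of up to 0.0903). Of the Kupffer cell and macrophage markers 10 of 11 were positive between HFD+MEC1 and HFD and 11 of 11 between HFD+MEC1 and ND. In both, 0 were past the edgeR threshold, and 0 and 6 had an unadjusted p under 0.05, beside 14.8% and 19.1% of all tested genes. Their part in the Cd163 values was not tested. Of 5 sinusoidal endothelium markers 4 were positive between HFD+MEC1 and HFD, and 5 between HFD+MEC1 and ND. Past the edgeR threshold there were 0 and 1 of them. Stellate cell markers were positive in 2 and 0 of 5, and cholangiocyte markers in 1 of 4 in each comparison.

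**Figure D4:**
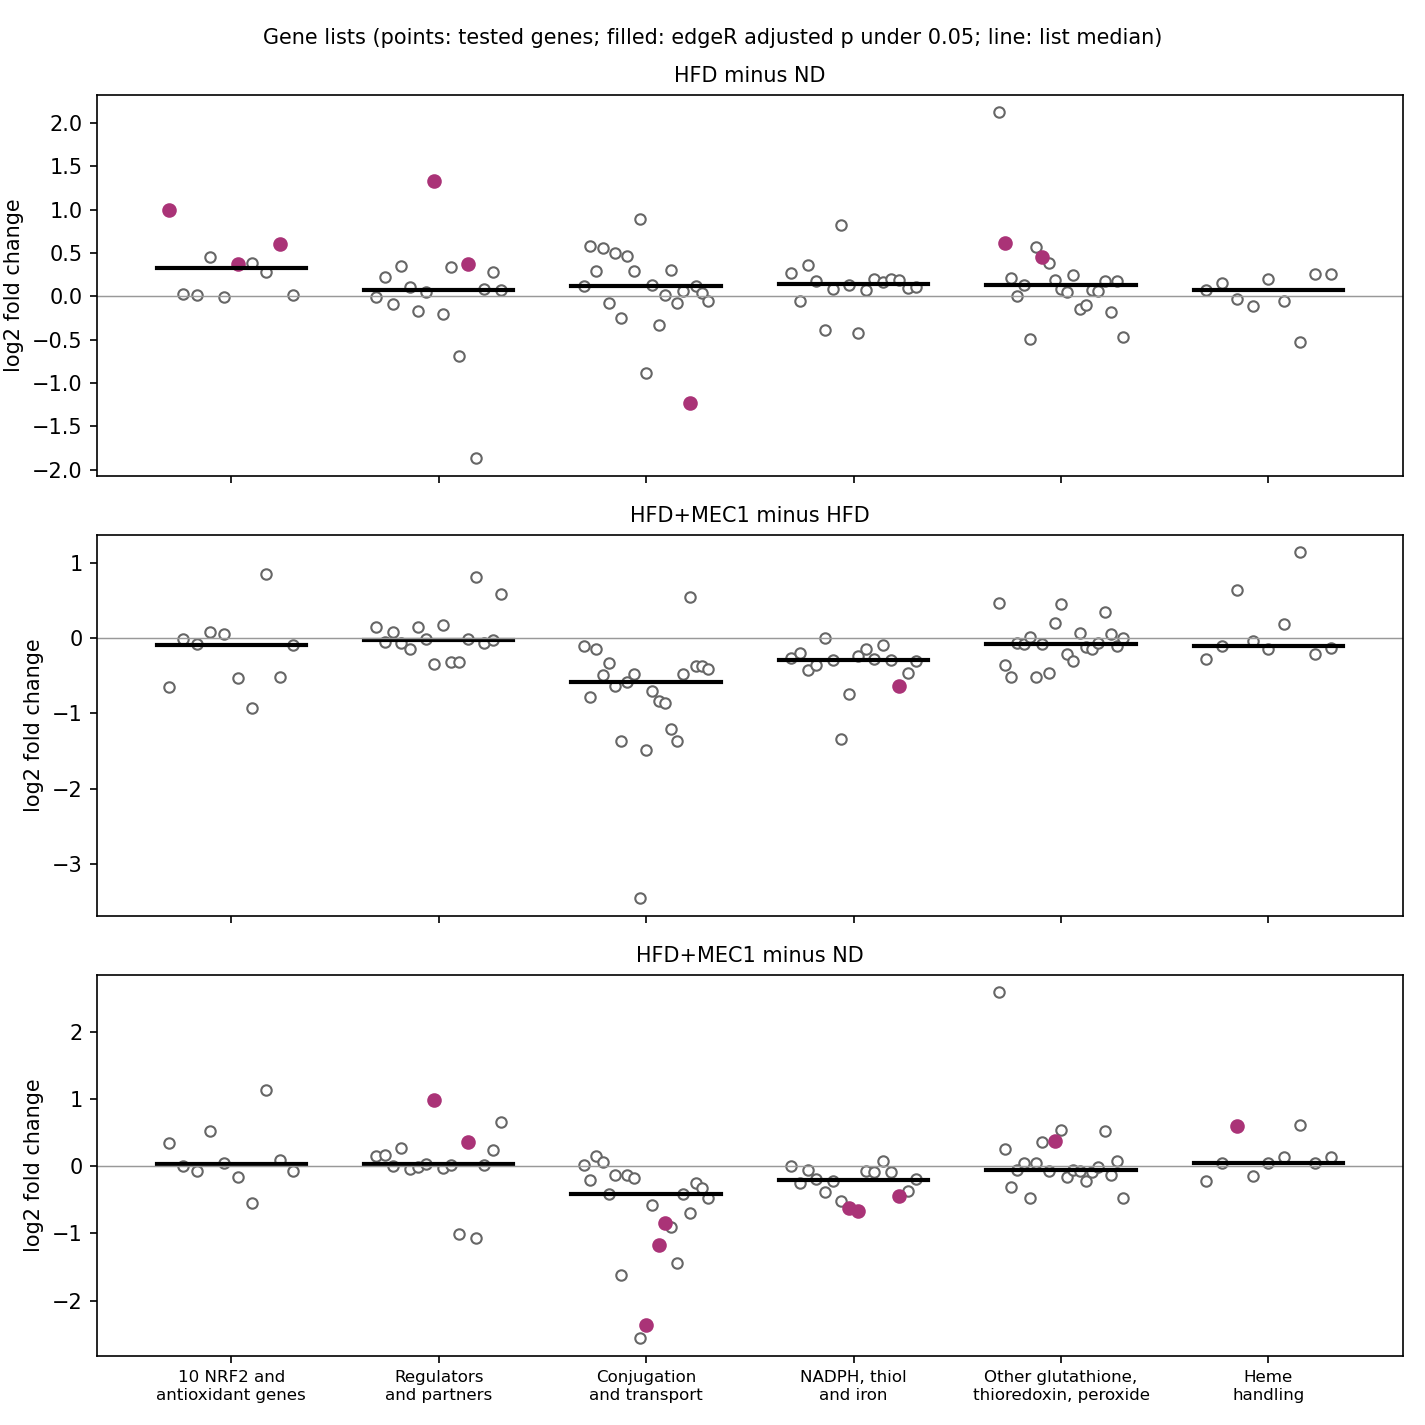
Log2 fold change of the tested genes of each list in the 3 comparisons, with points for genes, filled points for an edgeR adjusted p under 0.05 and lines for list medians. The conjugation list lies mostly below 0 in HFD+MEC1 minus HFD, with a median of -0.59, and the 10 NRF2 and antioxidant genes have their highest median, 0.33, in HFD minus ND.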

How the data were processed

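Per the file headers, the authors deposited read counts by gene symbol, as whole numbers, in a separate file for each of the 12 libraries, and RPKM values in a joint table. STAR 2.7.10a and mm10 are named in the submitters' processing notes; the counting tool, annotation and strand use are not given in the sources used here. Another 12 columns of RPKM carry names that fit none of the labels; they were not analysed here. Between 70.1 and 74.7% of counts from 1 to 20 were even, so they look like read ends. Replicates of a group differed by at least 35.3 in chi-square per gene.

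Counts were filtered with filterByExpr of edgeR 4.0.16 (R 4.3.3), scaled with TMM and fitted with a robust quasi-likelihood model of all 3 groups. P-values were two-sided and adjusted over 14172 genes; SE is the size of the log2 fold change over the root of F. A count of 3 equals 0.0590 to 0.0770 CPM, for counting error only. Alternatives were DESeq2 1.42.0, limma-voom (limma 3.58.1), limma on log2(RPKM + 0.1) and log2(RPKM + 1), other scalings, no filter, a replicate block and single libraries left out. The script was tested on simulated data. Gene positions are from GENCODE M21, whose assembly is the one mm10 names, and start site windows are from RefSeq. Named pathway genes are those past the threshold in any comparison and, where a list had none in HFD against ND or in HFD+MEC1 against HFD, the 2 with the smallest p there. Members and lists were chosen with earlier results of these data known.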

Additional observations from a re-analysis of the deposited data

Results flagged for a closer look

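Hmox1 in HFD replicate 4 stood at 30.3 CPM, where the other 3 HFD libraries lay between 19.99 and 21.6 CPM. The gap to the nearest library was 0.840 of the range of the group, above the 95% critical value of Dixon's test for 4 samples. Groups looked at numbered 30 (10 genes in 3 groups), and chance gives about 1 in 20.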

How the results depend on the processing

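Genes called in HFD against ND numbered 893, and 1391 with DESeq2; without 1 library at a time the count ran from 423 to 1109, and that of the 10 NRF2 genes from 1 to 3. In HFD+MEC1 against HFD 4 genes were called, and 0 with library totals, 17 without the filter, 2 with only both groups fitted, 389 with DESeq2, 2 with limma-voom, 0 with RPKM at a pseudocount of 0.1 and 1 at a pseudocount of 1; leaving out libraries gave 0 to 460. The 460 were called without HFD+MEC1 replicate 1, and 72 were called without HFD replicate 4. The 10 genes had 0 calls in that comparison, 1 (Nfe2l2) without the filter, 3 with DESeq2 and 0 to 2 without 1 library. In HFD+MEC1 against ND 644 genes were called, 1155 with DESeq2 and 334 to 678 without 1 library; the 10 genes had 0 calls, 1 with library totals, 2 with DESeq2, 1 with RPKM at 0.1 and 0 to 1 without 1 library. The cause was not tested.

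With replicate numbers as a block, 896, 21 and 716 genes were called in the 3 comparisons, against 893, 4 and 644, with 3, 0 and 0 of the 10 genes. Gss on HFD was then no longer called (adjusted p = 0.0629). Same-numbered libraries correlated at -0.094 to 0.13 in their deviations from group means, 1 of 12 pairs over 0.1. Whether they share more than a number was not tested.

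Signs that turned belong to differences near 0. With library totals, Keap1 on HFD was 0.12 and Fech 0.0094, and against ND with MEC1 Gsr was 0.0060 and Txnrd1 0.00059. With RPKM at pseudocounts of 0.1 and 1, Keap1 was 0.092 and 0.084, Gsr 0.0041 and 0.0044, and Txnrd1 0.00996 and 0.0097. Without 1 library, on HFD Gclm ran from -0.010 to 0.071, Gsr from -0.036 to 0.054, Keap1 from -0.056 to 0.031 and Txnrd1 from -0.028 to 0.056. Gclm ran from -0.061 to 0.019 for HFD+MEC1 against HFD and from -0.022 to 0.045 against ND.

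DESeq2 called 2 conjugation genes and 6 other glutathione enzymes on HFD, 4 NADPH genes with MEC1 against HFD, and 7 conjugation genes and 4 other glutathione enzymes against ND. Over all tested genes DESeq2 called 9.82%, 2.74% and 8.15% in the 3 comparisons. Of the 10 genes Nqo1 had the fewest counts, 100 to 394.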
